A study of Mus musculus with 6 samples.

Results

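The metabotropic glutamate receptors are the G protein-coupled receptors for glutamate. The genes described here are Grm5 of receptor group I, Grm2 and Grm3 of group II, and Grm4, Grm7 and Grm8 of group III, 6 of the 26264 gene symbols in the count files. They were chosen by symbol. Their levels were compared in the basolateral amygdala of male mice, between unstressed controls (Ctrl, 3 mice) and mice under chronic restraint stress (CRS, 3 mice), with 1 library per mouse, called biological replicates in the labels. The labels give no strain, genotype, age or length of the restraint. The libraries were made from total RNA after removal of ribosomal RNA, and held 9859449 to 10233706 counts in genes. Such bulk counts cannot tell fewer cells of a type from less RNA per cell.

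In contrast to the ionotropic receptors, metabotropic receptors pass the glutamate signal on through G proteins. Group I receptors couple to Gq, which activates phospholipase C and releases calcium from internal stores, and they sit mostly on the postsynaptic side. Group II and III receptors couple to Gi/o, which lowers cAMP, and many act at presynaptic terminals as brakes on transmitter release. In the amygdala the receptor encoded by Grm5 is known for its part in synaptic plasticity and fear learning.

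Levels are given as CPM, a gene's counts scaled to the size of its library. The libraries differed in the tissue they held. Markers of glutamatergic neurons were present, among them the vesicular glutamate transporter Slc17a7 at 911 ± 184 CPM in controls and 1090 ± 107 CPM in stressed mice (SD, n = 3 each). A list of 15 striatal and central amygdala markers summed to 1090 to 2100 CPM in control mice and 389 to 1190 CPM in stressed mice, with the lowest sum in stress 1, and no marker of any of the 10 lists used was at 0 in every library. Choroid plexus markers, 8 genes, summed to 2380 and 4230 CPM in controls 1 and 2 and 6080 CPM in stress 2, against 13.9 to 41.8 CPM in the other 3 libraries. Values without these libraries are given where a result rests on them.

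Grm5 had the highest level per exon length of the 6 receptors, and Grm4 the lowest. To compare genes, CPM was divided by the length of the gene's coding-transcript exons in kilobases (kb). In controls this gave 80.1 ± 3.11 CPM per kb for Grm5 (SD, n = 3). Grm3 followed at 49.5 ± 7.66, Grm7 at 30.7 ± 0.795 and Grm8 at 11.0 ± 1.57 CPM per kb. Grm2 stood at 4.53 ± 0.788 and Grm4 at 2.5 ± 0.887 CPM per kb. The order was the same in all 6 libraries, and under stress the means were 83.8, 45.9, 31.7, 11.1, 5.27 and 2.68 CPM per kb in that order.

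Most steps in this order were larger than the spread over libraries. Between Grm5 and Grm3, Grm3 and Grm7, Grm7 and Grm8, and Grm8 and Grm2, the ranges over the 6 libraries did not overlap. Grm2 and Grm4 were neighbours whose ranges overlapped, at 3.82 to 7.54 and 1.51 to 4.08 CPM per kb, though Grm2 was above Grm4 within each of the 6 libraries, by 1.51 to 2.63 times. With the length of the longest coding transcript in place of all coding exons the order and these overlaps were as before, and the Grm2 to Grm4 ratio was 1.25 to 2.18.

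**Figure D1:**
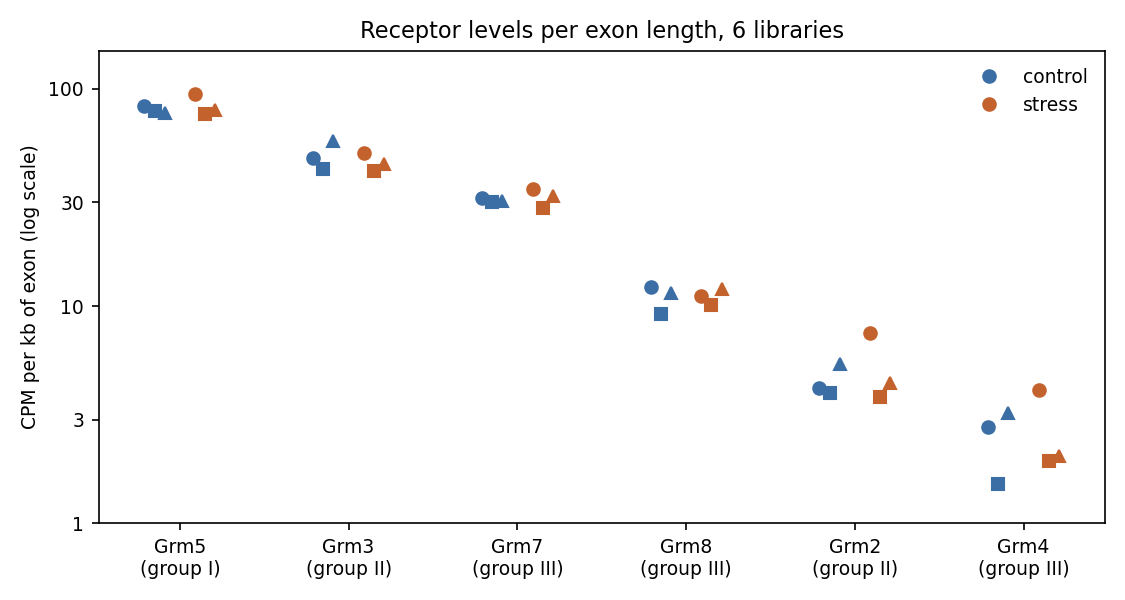
Level of each receptor gene in each library as CPM per kb of coding-transcript exon (log scale), controls in blue and stress in orange, with 1 point per library (circle, square and triangle for replicates 1, 2 and 3). Grm5 lies highest at 76.7 to 94.4 CPM per kb, and the point clouds of Grm2 and Grm4 at the bottom overlap.

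By receptor group, the shares of the 3 classes differed between the conditions by less than the SD over the controls. Of the summed level per kb of the 6 genes, group I made up 45.0 ± 3.02% in controls and 46.5 ± 0.788% under stress, group II 30.2 ± 3.31% and 28.3 ± 0.326%, and group III 24.8 ± 0.670% and 25.2 ± 0.828% (SD, n = 3 each). Control 3 differed most from the other libraries, with 41.7% in group I and 34.0% in group II. In summed CPM, group II was at 167, 149 and 202 in controls 1 to 3 and at 190, 146 and 159 in stress 1 to 3. Group III was at 213, 186 and 207 CPM in control mice and 230, 184 and 210 CPM in stressed mice. The ranges of controls and stress overlapped in every group.

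No difference between stress and control was called for any of the 6 receptor genes. All 6 passed the filter on low counts, and 0 passed the threshold of 0.05 on the p that edgeR's quasi-likelihood test gives after adjustment over all 14739 tested genes, of which 0% passed. At an unadjusted p under 0.05 there were 0 receptors too, against 3.37% of all tested genes, and DESeq2 and limma-voom called 0. The control and stress values did not separate for any receptor, against 8.28% of all tested genes. The log2 fold changes, stress minus control, were above 0 for 5 receptors and below 0 for 1, with a median of 0.06, beside a median of -0.0044 over all tested genes. The 95% interval included 0 for all 6.

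**Figure D2:**
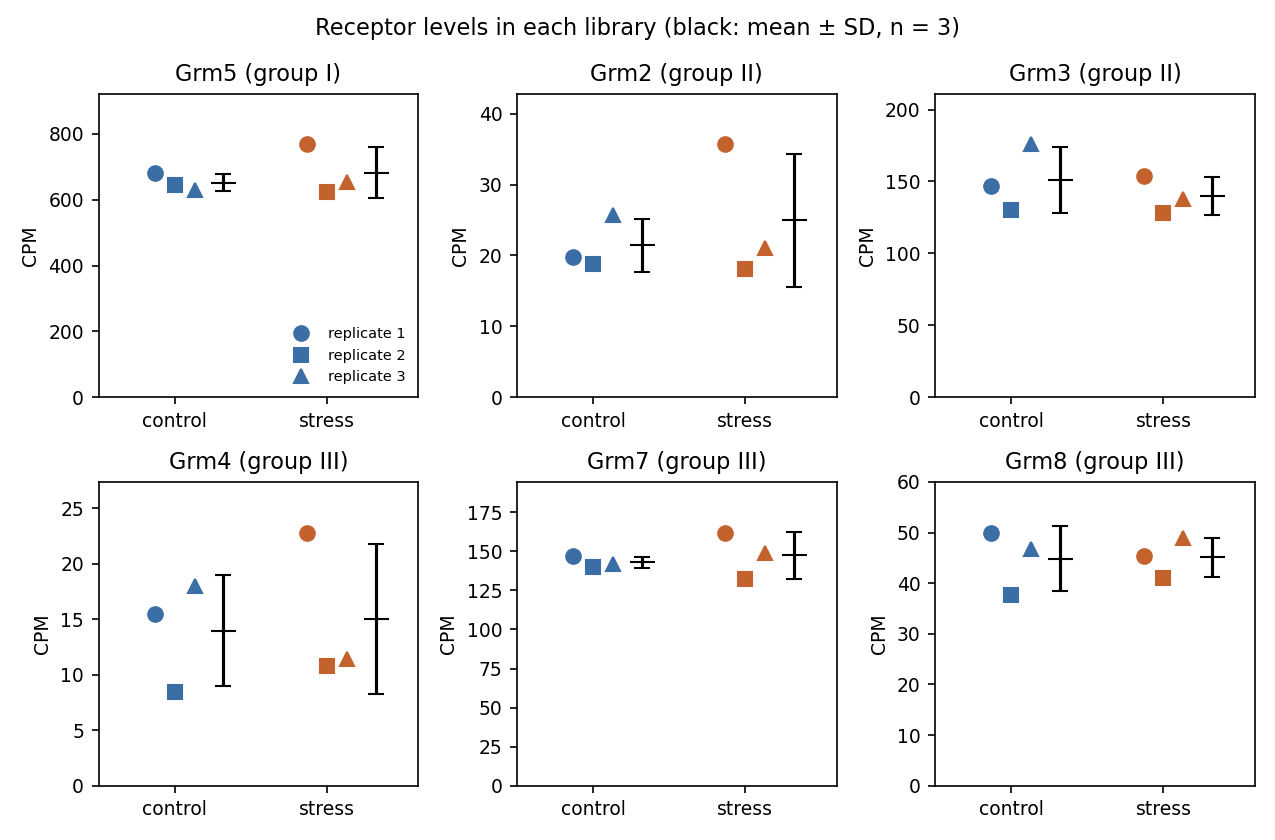
CPM of each receptor gene in each library (circle, square and triangle for replicates 1, 2 and 3), controls in blue and stress in orange, with the mean and SD of each group (n = 3) in black. The groups overlap in every panel, and stress 1 is the highest library for Grm5, Grm2, Grm4 and Grm7.

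Group I is represented by Grm5, the gene of the receptor mGlu5, which the Homer scaffolds tie to the postsynaptic density. Grm5 was measured at 680, 646 and 631 CPM in controls 1 to 3 and at 769, 624 and 654 CPM in stress 1 to 3. Stress 1 was the highest library and stress 2 the lowest, so that both ends of the range lay in the stress group. The log2 fold change was 0.07 ± 0.09 (SE, 95% interval -0.14 to 0.27, adjusted p = 0.997, edgeR). In fold terms the interval ran from 0.909 to 1.21, and without stress 1 the log2 fold change was -0.03.

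Of the group II receptors, Grm3 was far more abundant than Grm2. Grm3 encodes mGlu3, which is found on astrocytes as well as neurons. It was at 147, 130 and 176 CPM in control mice and at 154, 128 and 138 CPM in stressed mice. Control 3 was the highest library and stress 2 the lowest, and the groups overlapped. The log2 fold change was -0.11 ± 0.12 (95% interval -0.39 to 0.17, adjusted p = 0.997, edgeR), and without control 3 it was 0.02. A list of 10 astrocyte markers summed to 5540 to 6110 CPM in control mice and 5180 to 6010 CPM in stressed mice. Most of this sum came from 1 gene, the glutamate transporter Slc1a2. Averaged over the 10 genes on the log2 scale and set against controls, the list stood at 0.019 in control 1, -0.0070 in control 2 and -0.012 in control 3. It stood at 0.022 in stress 1, -0.205 in stress 2 and -0.209 in stress 3. The part of astrocytes in the Grm3 values was not tested.

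Grm2 encodes mGlu2, a presynaptic autoreceptor on glutamatergic terminals. It was at 19.8, 18.8 and 25.7 CPM in control mice and at 35.7, 18.1 and 21.0 CPM in stressed mice, from 200, 194 and 252 counts and 348, 180 and 212 counts. Stress 1 stood above the other 5 libraries, and the other 2 stress values lay within or below the control range. The log2 fold change of 0.22 ± 0.27 had a 95% interval from -0.44 to 0.88 (adjusted p = 0.997, edgeR). Without stress 1 it was -0.13, and without stress 2 it was 0.41.

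Stress 1 was also the library in which the makeup of group II differed. Grm2 made up 8.0, 8.52 and 8.59% of the group II level per kb in controls 1 to 3, 8.38 and 8.92% in stress 2 and 3, and 13.0% in stress 1. In the 3 libraries with high choroid plexus markers Grm2 was at 18.1 to 19.8 CPM, and in the other 3 at 21.0 to 35.7 CPM. A list of 4 markers of dentate granule cells, which express Grm2, summed to 18.5 to 31.4 CPM in control mice and 17.2 to 29.3 CPM in stressed mice. The highest of these sums were in the 3 libraries with high choroid plexus markers, where Grm2 was low. Their part in the Grm2 values was not tested.

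The group III genes encode receptors of the presynaptic active zone, and the receptor of Grm7 is known for its low affinity for glutamate. Grm7 was at 147, 140 and 142 CPM in control mice and at 162, 132 and 149 CPM in stressed mice. The stress values lay on both sides of the controls, which were tightly grouped: their coefficient of variation of 2.59% was close to the 2.62% that counting error alone gives for this gene. The log2 fold change was 0.04 ± 0.08 (95% interval -0.14 to 0.23, adjusted p = 0.997, edgeR), and without stress 1 it was -0.03.

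Grm8 was at 50.0, 37.7 and 46.8 CPM in control mice and at 45.3, 41.1 and 48.9 CPM in stressed mice. The 3 stress values lay inside the range of the controls, whose lowest and highest libraries were the extremes of all 6. The log2 fold change was 0.0090 ± 0.117 (95% interval -0.26 to 0.28, adjusted p = 0.999, edgeR), the smallest of the 6 receptors, and its sign changed with library size alone as the scaling (-0.0091), without control 2 (-0.09) and without stress 3 (-0.05).

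Grm4 had the fewest reads and varied most. It was at 15.5, 8.42 and 18.0 CPM in control mice and at 22.8, 10.8 and 11.4 CPM in stressed mice, from 156, 87 and 176 counts and 222, 107 and 115 counts. Control 2 was lowest and stress 1 highest, 2.7 times apart, and the groups overlapped. The coefficient of variation over the 6 libraries was 36.8%, against 8.34% from counting error alone. The log2 fold change of 0.10 ± 0.40 had a 95% interval from -0.87 to 1.07 (adjusted p = 0.997, edgeR). It was -0.33 without stress 1, -0.15 without control 2 and 0.33 without control 3.

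Within group III, Grm7 made up 69.7 ± 3.50% of the level per kb in controls and 69.8 ± 0.383% under stress (SD, n = 3 each). Grm8 made up 24.8 ± 1.91% and 24.4 ± 1.93%, and Grm4 5.59 ± 1.74% and 5.80 ± 2.07%. Each share differed between controls and stress by less than its SD in either group.

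**Figure D3:**
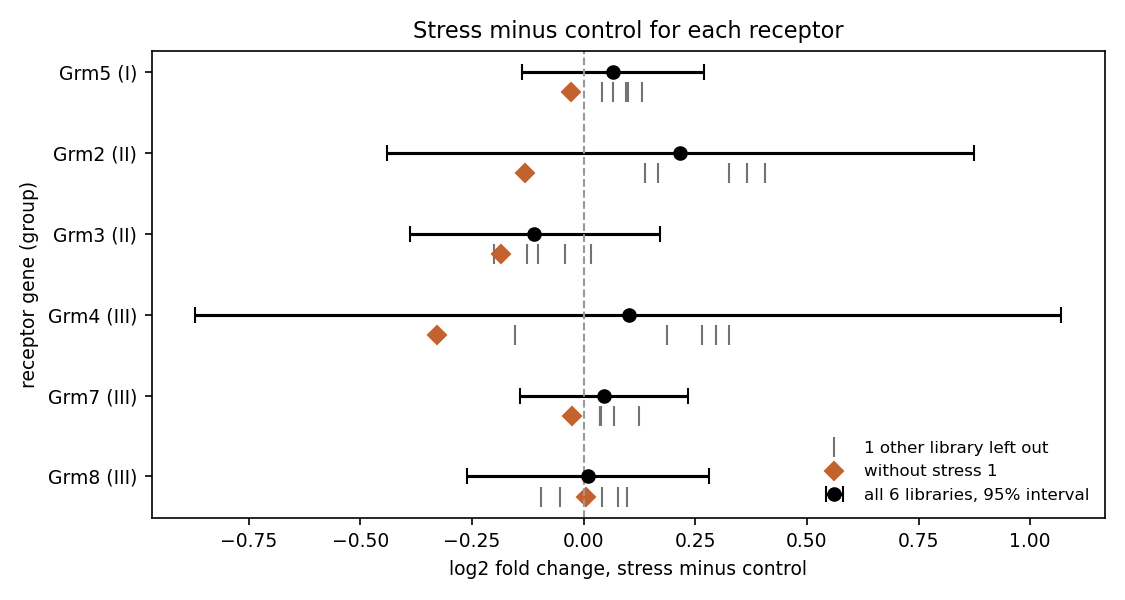
Log2 fold change of each receptor gene, stress minus control, from all 6 libraries (black point, 95% interval), with the values when 1 library is left out below it (diamond: without stress 1, grey bars: without each of the other 5). Every interval includes 0, and without stress 1 the points of Grm5, Grm2, Grm4 and Grm7 lie below 0.

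The precision differed between the receptors. For Grm5, Grm3, Grm7 and Grm8 the 95% interval of the fold change lay within 1.5-fold in both directions, the widest being that of Grm3 at 0.763 to 1.13. For Grm2 it ran from 0.737 to 1.83, which includes a 1.5-fold higher level. For Grm4 it ran from 0.547 to 2.11, which includes a 1.5-fold difference in either direction. Over the 6 libraries the coefficient of variation was 8.01% for Grm5, 6.91% for Grm7, 10.6% for Grm8, 12.4% for Grm3 and 28.8% for Grm2. For each of these genes it was above the counting error, which was 1.22 to 6.58%.

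Several receptors shared their extreme libraries. Stress 1 was the highest of the 6 libraries for 4 receptors, namely Grm5, Grm2, Grm4 and Grm7, and over all tested genes it was the highest for 22.6%. It was the lowest for 0 receptors and for 23.1% of all tested genes. Both percentages were the largest of any library, so stress 1 was often an extreme in either direction. Stress 2 was the lowest for 4, namely Grm5, Grm2, Grm3 and Grm7, against 13.2% of all tested genes. Relative to the control mean on the log2 scale, stress 1 stood at 0.24 for Grm5, 0.74 for Grm2, 0.77 for Grm4 and 0.18 for Grm7, and near the controls for Grm3 (0.04) and Grm8 (0.03). Of the marker lists, glutamatergic neurons were at 0.36 and astrocytes at 0.022 in stress 1, each the highest of the 6 libraries on this scale. For astrocytes, control 1 was close at 0.019. By summed CPM, control 3 was the highest for both lists, at 3020 and 6110 CPM against 2980 and 6010 CPM in stress 1. On the log2 scale, choroid plexus markers were at -4.35 and striatal and central amygdala markers at -2.57 in stress 1, each the lowest. Oligodendrocyte markers at -0.61 and oligodendrocyte precursor markers at -0.135 were also lowest there. Most genes of the glutamatergic list were highest in stress 1, but Slc17a6 was lowest there, at 21.2 CPM against 32.5 to 67.7 CPM in the other libraries. The part of these tissues in the receptor values was not tested. Without stress 1, the log2 fold changes of Grm5, Grm2, Grm4 and Grm7 were below 0. Leaving out the highest library of a gene, here a stress library, can only lower its stress mean. Grm5 (-0.028 ± 0.073, SE), Grm7 (-0.025 ± 0.078) and Grm2 (-0.131 ± 0.157) then lay below 0 by less than their SE. Grm4 (-0.329 ± 0.315) lay below 0 by slightly more than its SE.

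**Figure D4:**
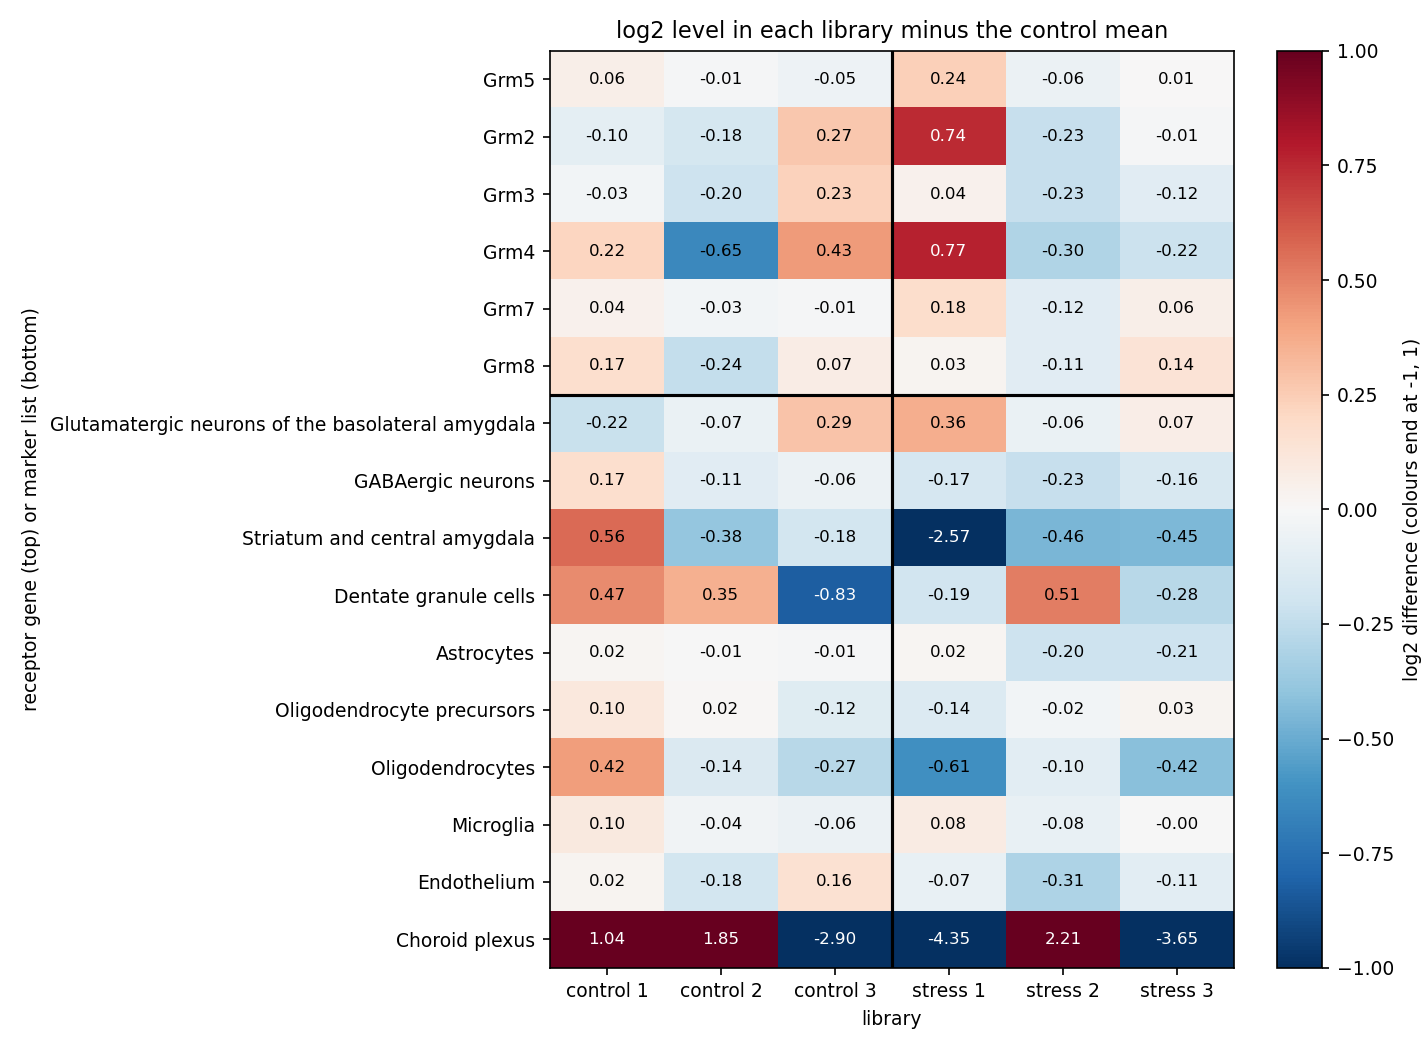
Log2 level in each library minus the control mean, for the 6 receptor genes (top) and for the mean of each marker list (bottom), red above and blue below. Stress 1 holds the highest values of Grm2 (0.74) and Grm4 (0.77) and the lowest value of the striatal and central amygdala list (-2.57).

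The signalling partners of the receptors were read from the same test over all genes. Of 58 partner genes in 5 lists, all tested, 0 passed the threshold in edgeR's quasi-likelihood test, with DESeq2 or with limma-voom. At an unadjusted p under 0.05 there was 1 gene (1.72%), against 3.37% of all tested genes. This count depended on single libraries: it was 0 without control 1, 4 without control 2, 7 without control 3, 2 without stress 1, 3 without stress 2 and 5 without stress 3, and it was 5 with DESeq2 and 2 with limma-voom. Stress and control values separated in 1 gene (1.72%, against 8.28%), Gnb2, a G protein beta subunit at 174 ± 1.22 and 182 ± 6.31 CPM, which was named after its values were seen. The fold change was above 0 in 35 and below 0 in 23, with a median log2 fold change of 0.02.

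For the Gq arm and the scaffolds of group I receptors, 12 of 20 genes were above 0 and 8 below, with a median log2 fold change of 0.05. This list holds the G protein alpha subunit Gnaq, the phospholipases C, the Homer and Shank scaffolds and the diacylglycerol lipase Dagla. Dlgap1, a scaffold of the postsynaptic density that binds Shank proteins, was at 489 ± 41.5 CPM in control mice and 552 ± 33.6 CPM in stressed mice, which is a log2 fold change of 0.17 ± 0.08. Homer1, the best known scaffold of mGlu5, was at 247 and 237 CPM.

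For the Gi/o arm of group II and III receptors, 14 of 22 genes were above 0 and 8 below, with a median of 0.06. Rgs4, which speeds the return of Gi/o and Gq to rest, was the partner with an unadjusted p under 0.05 in edgeR's test, and its adjusted p was 0.997. It was at 380, 287 and 342 CPM in control mice and 252, 221 and 305 CPM in stressed mice, and its log2 fold change was -0.37 ± 0.14. Stress 3 lay above control 2, so the groups overlapped. Adcy8, a calcium-stimulated adenylyl cyclase, was at 40.0, 41.2 and 44.0 CPM in control mice and 75.7, 42.8 and 51.2 CPM in stressed mice, which is a log2 fold change of 0.44 ± 0.20. Its values under stress were spread widely, with stress 1 far above the rest.

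The partners of group III receptors at the synapse were close to level, with a median of -0.02 over 4 genes, 2 above 0 and 2 below. Elfn1, a postsynaptic adhesion protein that binds group III receptors across the cleft, was at 25.6 ± 3.22 and 24.2 ± 2.08 CPM, and its log2 fold change was -0.08 ± 0.12. Grip1, a PDZ scaffold, was at -0.06 ± 0.10. N-acetylaspartylglutamate (NAAG) is a peptide that activates mGlu3. Among 4 genes of the enzymes that make or cleave it, 2 were above 0 and 2 below, with a median of -0.03. Folh1, which cleaves NAAG, was at 10.2 ± 3.05 and 9.01 ± 0.903 CPM, which is a log2 fold change of -0.18 ± 0.22, and Rimklb, which makes it, was at -0.08 ± 0.12.

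Genes for desensitisation and trafficking of the receptors, 8 in number, had a median log2 fold change of 0.0017, with 5 above 0 and 3 below. Grk3, a G protein-coupled receptor kinase, was at 171, 183 and 185 CPM in control mice and 285, 207 and 177 CPM in stressed mice, and its log2 fold change was 0.31 ± 0.17, with stress 1 as the highest library. Grk2, its close relative, was at 175 ± 10.9 and 188 ± 8.12 CPM, which is a log2 fold change of 0.10 ± 0.07. The arrestin gene Arrb1 was at 356 CPM in both groups.

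**Figure D5:**
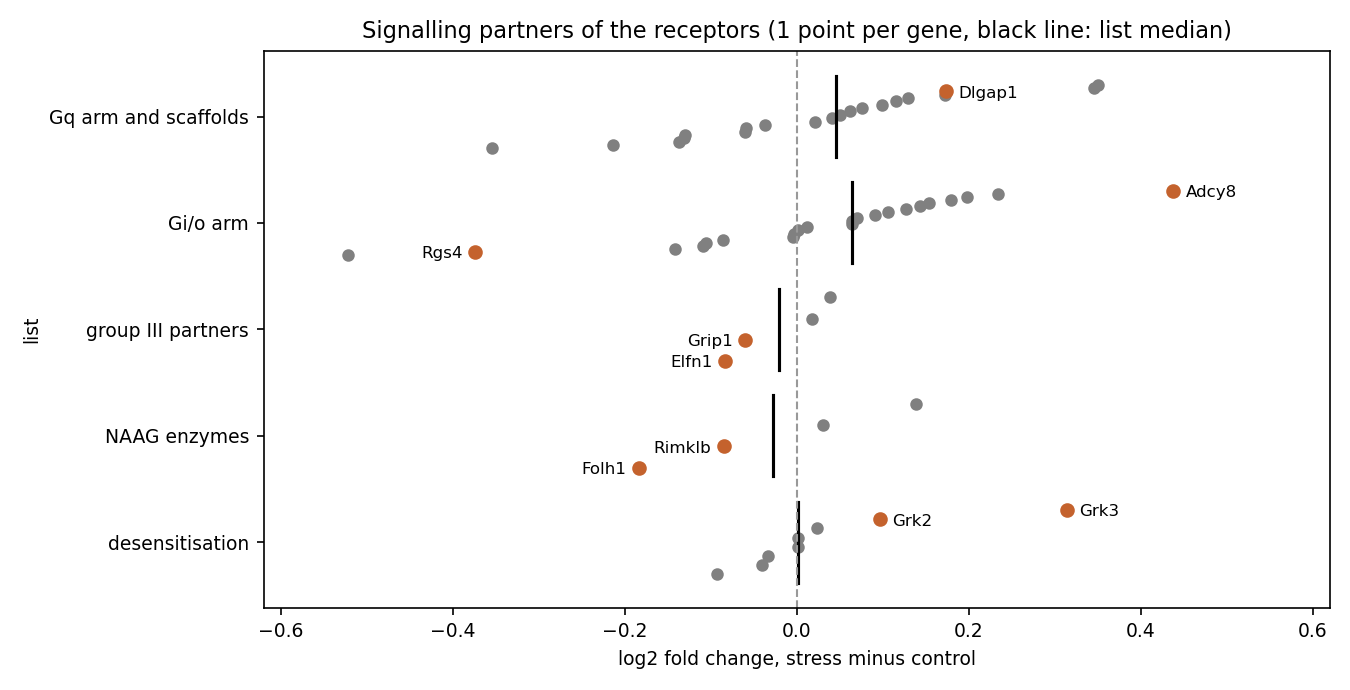
Log2 fold change, stress minus control, of each of 58 signalling partners in 5 lists (1 point per gene, black line: list median), with the genes named in the text by smallest unadjusted p in orange. The list medians lie between -0.03 and 0.06.

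The genes whose log2 CPM followed each receptor most closely over the 6 libraries were listed as a description, among 10238 other genes with a mean of at least 10 CPM. For Grm2 they were Rab3c, a synaptic vesicle GTPase (Pearson r = 0.997), and Scaf1 (0.996), and for Grm4 Lhfpl4, a partner of GABA-A receptors at synapses (0.998), and Marchf2 (0.989). For Grm5 they were Scamp3 (0.987) and the nicotinic receptor subunit Chrnb2 (0.985), for Grm3 Khsrp (0.991) and Sema7a (0.989), for Grm7 the histone methyltransferase Ehmt2 (0.996) and Zfp329 (0.995), and for Grm8 Stimate (0.981) and Stk38l (0.974). Each is among the highest of 10238 values, all from 6 libraries. At a lower cut of 0.9, 357 genes passed for Grm2, 173 for Grm4 and 40 for Grm8. The 2 genes named per receptor were thus not the only ones that followed it. The points share their libraries, and with them the differences in tissue given above.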

How the data were processed

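Each deposited file holds the raw, unscaled count of every gene symbol in 1 library. Without saying what each was used for, the submitters' processing notes list the build mm39, edgeR 3.42.4, HTSeq 0.13.5, STAR 2.7.7a and FastQC 0.12.1. No source used here names the annotation or the strand setting, so antisense reads cannot be told apart; GENCODE M21 places antisense exons over Grm2 and Grm7. Rows naming no gene (53.0 to 57.4% of reads without a feature, 6.97 to 8.16% with multiple alignments) were left out.

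The fit used edgeR 4.0.16 under R 4.3.3 (TMM scaling, filterByExpr with minimum count 10 and minimum total 15, robust quasi-likelihood F test, Benjamini-Hochberg over 14739 tested genes, threshold 0.05), with DESeq2 1.42.0 and limma 3.58.1 as alternatives. SEs were derived from each gene's fold change and F statistic. On simulated counts for stress against control with 14739 genes, 41.2% of 1.5-fold and 78.5% of 2-fold changes were called. These counts had a common mean per gene and a spread set by the gene's level alone. They held none of the tissue differences between the libraries, so the percentages do not apply to the receptors measured here. CPM uses TMM-scaled library sizes, and log2 CPM a prior count of 2. Exon lengths are from GENCODE M21, which is of another build (GRCm38), so no coordinates are given. The file symbol Grasp was read as Tamalin. The least different pair of libraries had a chi-square per gene of 2.95, so none was a copy of another.

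The receptors, lists and tests were chosen with earlier results of these data known. The genes named are the 6 receptors, 2 per partner list by smallest unadjusted p (1 of these is not reported here), and 2 per receptor by correlation; Homer1, Arrb1, Gnb2 and Slc17a7 were added after their values were seen. Alternatives covered scaling, filtering, the test, the replicate number as a block and libraries left out.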

Additional observations from a re-analysis of the deposited data

How the results depend on the processing

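The receptors were recomputed under 16 alternatives each, and 0 of the 6 passed the threshold in any of them; the count of partner genes past it was also 0 in each. Over all genes the count was 0, against 2 with DESeq2 (Hpca and Ndst4) and 0 to 1 with 1 replicate left out (Rn18s, without control 3). These 3 genes were named after their values were seen. With 1 replicate left out, the log2 fold change ranged from -0.028 to 0.13 for Grm5, -0.13 to 0.41 for Grm2, -0.20 to 0.016 for Grm3, -0.33 to 0.33 for Grm4, -0.025 to 0.12 for Grm7 and -0.094 to 0.098 for Grm8. Without the first replicate of both groups, Grm2 was at -0.18, Grm4 at -0.25 and Grm7 at -0.0043. Without the 3 libraries with high choroid plexus markers, where control 3 is the only control and is assumed to vary like the stress libraries, Grm4 was at -0.074, Grm5 at 0.18, Grm7 at 0.13 and Grm3 at -0.27, the last 3 outside the ranges with 1 replicate left out. With library size alone Grm8 was at -0.0091. The causes of these reversals were not tested. The labels do not say whether the replicate numbers pair the samples. The correlations of same-numbered deviations were -0.318, 0.53 and 0.277, and only number 2 correlated best with its own number. These correlations cannot settle the pairing, because the deviations also hold the differences in tissue. With the replicate block 0 genes were called, and the log2 fold change was 0.06 for Grm5, 0.17 for Grm2 and 0.09 for Grm4. The p-values rest on the spread between 3 mice per group, estimated with information shared over all genes, and this spread includes the differences in tissue. The intervals of Grm2 and Grm4 limit what can be said of these genes.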
